A study of Mus musculus with 18 samples.

Results

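The genes described here are 9 members of the pathways that decide between survival and death of a cell. They encode the death ligands Fasl, Tnf and Tnfsf10 (TRAIL), the death receptor Fas, the initiator caspase Casp8, the BCL2 family proteins Bcl2 and Bcl2l11 (BIM), and the necroptosis proteins Ripk3 and Mlkl. They were chosen by name, and each of the 9 was found among the 54232 genes of the count table. The data are bulk RNA-seq of whole lacrimal glands (LGs), the exocrine glands that make the watery part of tears. LGs of male BALB/cJ mice (BALB/c, the healthy control strain) and of male NOD.B10Sn-H2b/J mice (NOD.H-2b, a model of Sjögren's syndrome) were taken when the mice were 2, 4 or 6 months old (2M, 4M and 6M). Each strain gave 3 LGs at each age, which makes 6 groups and 18 LGs in all, and the labels name no transgene and no treatment. The strains are separately inbred and are not littermates, so the effect of the disease and that of the other strain differences cannot be told apart. Each LG came from a different mouse, so the p-values measure the spread between mice.

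A death ligand binds its receptor as a trimer, and the receptor gathers the adaptor FADD and Casp8 into a complex in which Casp8 is activated and starts apoptosis. BCL2 family proteins govern a second route, through the outer membrane of the mitochondria, where Bcl2 restrains the pore-forming proteins BAX and BAK and Bcl2l11 is one of the BH3-only proteins that release them. When Casp8 is inactive, Ripk3 phosphorylates Mlkl, which then breaks the plasma membrane in necroptosis, a form of death that releases the contents of the cell. Lymphocytes and macrophages express many of these genes themselves. Fasl is made by activated T cells and natural killer cells, and Tnf by macrophages and T cells.

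The sequence before the transcription start was found in RefSeq (GRCm38.p6) for each of the 9 genes, with 2 starts for Bcl2l11, and 250 bases were read before each start. They were searched on both strands for an interferon-sensitive IRF site (GAAA, any 2 bases, GAAA), the kappaB site by its consensus, a TATA box (TATAAA) and a GC box (GGGCGG). The promoters of 4 genes are shown. Tnf and Ripk3 had the largest SD of group means among the 9 genes, Fas was the receptor, and Casp8 was the gene whose strain difference changed with age in both tests of it. Each line runs 5′ to 3′ on the strand of the gene and ends at the base before the start, and capitals mark the matches. A RefSeq start need not be the end of the GENCODE gene given below.
Tnf, chr17:35202008-35202257, minus strand: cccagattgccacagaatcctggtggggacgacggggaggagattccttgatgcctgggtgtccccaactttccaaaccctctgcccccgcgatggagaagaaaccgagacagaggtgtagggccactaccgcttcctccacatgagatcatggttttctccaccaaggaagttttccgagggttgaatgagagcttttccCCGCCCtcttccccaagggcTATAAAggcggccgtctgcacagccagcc
Ripk3, chr14:55788858-55789107, minus strand: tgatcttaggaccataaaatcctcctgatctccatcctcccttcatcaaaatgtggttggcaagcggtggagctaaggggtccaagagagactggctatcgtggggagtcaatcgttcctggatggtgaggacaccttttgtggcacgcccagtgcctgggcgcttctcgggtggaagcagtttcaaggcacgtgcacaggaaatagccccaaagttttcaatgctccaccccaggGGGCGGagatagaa
Fas, chr19:34290409-34290658, plus strand: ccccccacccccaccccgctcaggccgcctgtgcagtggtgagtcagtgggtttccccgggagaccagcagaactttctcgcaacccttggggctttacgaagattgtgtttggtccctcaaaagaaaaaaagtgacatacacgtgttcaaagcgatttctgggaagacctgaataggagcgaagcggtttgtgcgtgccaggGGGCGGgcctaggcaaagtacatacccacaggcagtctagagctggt
Casp8, chr1:58802252-58802501, plus strand: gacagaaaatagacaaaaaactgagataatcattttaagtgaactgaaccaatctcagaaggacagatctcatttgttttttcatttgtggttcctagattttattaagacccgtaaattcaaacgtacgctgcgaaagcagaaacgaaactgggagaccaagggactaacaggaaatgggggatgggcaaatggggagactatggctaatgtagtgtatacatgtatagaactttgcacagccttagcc
The only TATA box among the 9 genes was that of Tnf, 29 to 24 bases before the start (12.4% of 32851 mouse promoters of this length hold one). The GC box was present in 6 of the 9 genes (Fas, Fasl, Tnf, Bcl2, Bcl2l11 and Ripk3, against 32.7% of promoters), with 7 matches before Bcl2. No IRF match (2.98% of promoters) and no kappaB match (3.9%) lay in these windows. The GC content ranged from 39.6% before Casp8 to 74.8% before Bcl2, around a median of 52.4% over the 32851 promoters. A match describes the letters of the window and is not a site.

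The libraries held between 49480781 and 103936830 counts. BALB/c replicate 1 of 6M had the highest total, and the others were at or below 67138830 counts. Values are given as CPM (counts per 1000000 counts), scaled over the 18 mice with the TMM method. Immune markers differed between the strains at every age. Ptprc (CD45), the pan-leukocyte gene, ranged at 2M from 6.37 to 8.33 CPM in BALB/c mice and from 36.4 to 96.7 CPM in the other strain. At 4M these ranges were 11.1 to 23.7 CPM and 169 to 302 CPM, and at 6M they were 10.8 to 13.9 CPM and 221 to 365 CPM. By the test described below, each of the 5 T cell markers was higher in NOD.H-2b at each age. Of 7 cytotoxic cell markers, 7, 6 and 6 were tested at 2M, 4M and 6M, and all of these were higher. Of 5 B cell markers, 2, 5 and 5 were tested, and all of these were higher. Of the 4 plasma cell markers, all tested, 1, 3 and 3 were higher, and of the 7 macrophage markers, all tested, 7, 6 and 6. Of all genes tested, 22.5%, 23.4% and 28.6% were higher at the 3 ages and 17.2%, 19.2% and 25.8% lower. The 8 lacrimal acinar and epithelial markers were present in every group, with summed levels between 1000 and 1960 CPM, and 5 were higher in NOD.H-2b at 2M, whereas 3 were lower at 4M and 5 at 6M. The next lists held 4 markers each. Skeletal muscle had 1 marker tested at each age, and it was lower. Adipocytes had 3, 2 and 1 tested and none called. Salivary gland had 2, 2 and 1 tested, with 0, 2 and 1 lower. Erythroid cells had 4 tested, with 1 higher and 1 lower at each age. Markers at 0 in all 3 mice of a group were Gzmk in BALB/c at 2M and 6M, and Myh4, Muc19, Bpifa2 and Smr2 of the muscle and salivary gland lists in some groups. One BALB/c mouse of 4M, replicate 3, stood apart from its group with the highest BALB/c value of Ptprc, 23.7 CPM, and a summed T cell marker level of 3.79 CPM, where the other BALB/c mice lay between 0.265 and 1.43 CPM. In these whole glands, a larger number of cells that express a gene and more of its RNA per cell cannot be told apart, and the part of the leukocyte markers in the differences below was not tested.

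At each age most of these death genes were higher in NOD.H-2b LGs and none was lower. A gene passed the test where its false discovery rate (FDR) over all genes tested was under 0.05 in edgeR's quasi-likelihood test of the 6 mice of that age. At 2M, 6 of the 8 genes that had enough counts to be tested were higher, against 22.5% of all 17200 genes tested, and 17.2% of all genes were lower. At 4M, 7 of 9 were higher, against 23.4% of 17722 genes (19.2% lower), and at 6M, 8 of 9 were higher, against 28.6% of 17750 genes (25.8% lower). Their median log2 fold changes at 2M, 4M and 6M were 1.35, 1.58 and 2.47, where that of all genes tested was 0.00986, 0.000337 and -0.00414. Fasl, Tnf and Ripk3 passed the filter on low counts through the NOD.H-2b mice, in which they had more counts, so these counts and medians are a description. Of the other 6 genes, 4 were higher at 2M, 4 at 4M and 5 at 6M. At least a 2-fold difference with the same FDR was reached by 4 genes at 2M (12% of all genes tested were higher by this rule), by 7 at 4M (15.6%) and by 7 at 6M (18.8%). With Fasl, Tnf and Ripk3 set aside, these were Tnfsf10 and Mlkl at 2M. At 4M and 6M they were Tnfsf10, Casp8, Bcl2 and Mlkl. Without BALB/c replicate 3 of 4M the count of genes higher at 4M by the FDR alone was again 7.

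**Figure D1:**
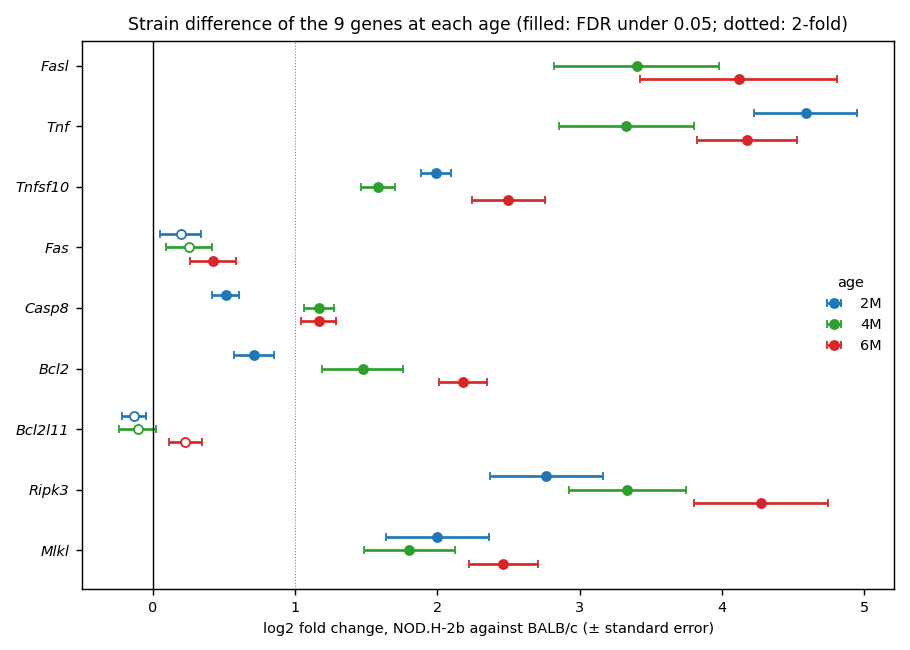
The log2 fold change of NOD.H-2b against BALB/c is plotted on the horizontal axis for each of the 9 genes, with its standard error as bars and 3 mice per strain at each age. Filled points passed an FDR of 0.05, and Tnf, Ripk3 and Fasl lie farthest to the right while Fas and Bcl2l11 lie near 0.

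Each ligand was higher in NOD.H-2b at every age at which it was tested. Tnf, the cytokine that activates TNF receptors, lies on chromosome 17 at 35199381 to 35202007 (GRCm38, minus strand). The 3 BALB/c mice of 2M had 0.0382, 0.0718 and 0.106 CPM, those of 4M had 0.0922, 0.284 and 0.611 CPM and those of 6M had 0.172, 0.298 and 0.0935 CPM. In NOD.H-2b it was at 1.99, 1.77 and 1.49 CPM at 2M, at 3.63, 3.37 and 3.26 CPM at 4M and at 4.12, 2.49 and 3.40 CPM at 6M. Every NOD.H-2b mouse was above every BALB/c mouse, and the highest BALB/c value was that of the 4M mouse with the high Ptprc level. At 2M the BALB/c mean was 0.0719 ± 0.0338 CPM and the NOD.H-2b mean 1.75 ± 0.248 CPM (SD, n = 3 each). This was a log2 fold change of 4.59 (standard error 0.36) with an adjusted p of 2.42e-06. The log2 fold change was 3.33 ± 0.48 at 4M (adjusted p = 0.000831) and 4.18 ± 0.35 at 6M (adjusted p = 7.14e-06). Without the BALB/c mouse of 4M it was 4.19 ± 0.39 at 4M. The gene lies between H2-Ab1 (ending at 34269419) and H2-D1 (starting at 35262730), in the MHC region where NOD.H-2b carries the H2b haplotype and BALB/c carries H2d. Whether reads of both haplotypes were aligned to the reference equally well was not tested.

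Fasl, the membrane ligand by which cytotoxic cells engage Fas, lies on chromosome 1 at 161780689 to 161788495. It was the least abundant of the 9 genes. The BALB/c mice held 0, 1 and 0 counts at 2M, 1, 3 and 2 at 4M and 2, 1 and 0 at 6M. The NOD.H-2b mice held 4, 24 and 7 counts at 2M, 35, 22 and 15 at 4M and 31, 10 and 19 at 6M. The strains did not overlap in CPM at any age, and 1 NOD.H-2b mouse of 2M, replicate 2, held most of the counts of its group. That mouse also had the highest Ptprc level of its group, 96.7 CPM. Pooled over 3 mice and divided by the library sizes, Fasl was 30.3 times the BALB/c level at 2M (95% counting interval 5.1 to 1230, from 35 against 1 counts), 11.3 times at 4M (4.96 to 31.9) and 19.2 times at 6M (6.26 to 95.6). These intervals are exact and cover counting error only. Fasl had too few counts for the test at 2M, and its adjusted p was 0.00111 at 4M and 0.000693 at 6M.

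Tnfsf10, the ligand of the mouse TRAIL receptor, lies on chromosome 3 at 27317028 to 27342427. Its BALB/c levels were 3.27, 2.87 and 3.19 CPM at 2M, 3.72, 4.10 and 4.28 CPM at 4M and 3.10, 3.73 and 1.87 CPM at 6M. Its NOD.H-2b levels were 10.9, 13.2 and 11.9 CPM at 2M, 12.9, 12.1 and 11.2 CPM at 4M and 19.4, 12.5 and 16.6 CPM at 6M. The lowest NOD.H-2b value was far above the highest BALB/c value at each age. Its log2 fold change against BALB/c was 1.99 ± 0.11 at 2M (adjusted p = 1.17e-07), 1.58 ± 0.12 at 4M (adjusted p = 1.03e-05) and 2.50 ± 0.25 at 6M (adjusted p = 7.79e-05). Tnfsf10 had at least 80 counts in every mouse, and of the 3 ligands its fold changes had the smallest standard errors.

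Fas, the receptor of Fasl, showed little of this. The gene lies on chromosome 19 at 34290666 to 34327772. Its BALB/c levels were 3.88, 3.95 and 2.98 CPM at 2M, 5.66, 5.18 and 4.46 CPM at 4M and 5.40, 4.86 and 4.47 CPM at 6M. In NOD.H-2b they were 3.81, 4.09 and 4.12 CPM at 2M, 7.04, 6.09 and 5.03 CPM at 4M and 6.51, 5.20 and 7.66 CPM at 6M. The strains overlapped at every age. The log2 fold change was 0.20 ± 0.15 at 2M (adjusted p = 0.319) and 0.26 ± 0.16 at 4M (adjusted p = 0.237). At 6M it was 0.42 ± 0.16 (adjusted p = 0.0444), a call that was lost in 7 of 13 alternative settings, over which the adjusted p ranged from 0.0103 to 0.19.

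Casp8, the initiator caspase that death receptors recruit, lies on chromosome 1 at 58795374 to 58847503. Its BALB/c levels were 6.75, 6.80 and 6.07 CPM at 2M, 6.10, 7.05 and 6.64 CPM at 4M and 7.52, 7.29 and 6.90 CPM at 6M. Its NOD.H-2b levels were 8.33, 9.62 and 9.20 CPM at 2M, 15.6, 14.4 and 14.3 CPM at 4M and 18.6, 13.6 and 15.5 CPM at 6M. No value of one strain fell within the other, and the gap was narrow at 2M and wide at 4M and 6M. The strain difference was a log2 fold change of 0.51 ± 0.10 at 2M (adjusted p = 0.00147), 1.17 ± 0.10 at 4M (adjusted p = 2.58e-05) and 1.17 ± 0.12 at 6M (adjusted p = 3.36e-05).

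Of the BCL2 family pair, Bcl2 was higher in NOD.H-2b at each age and Bcl2l11 did not pass the test. Bcl2, the pro-survival protein that gave the family its name, lies on chromosome 1 at 106538178 to 106714274, and its exons overlap D630008O14Rik on the other strand. Its BALB/c levels were 4.11, 4.67 and 4.60 CPM at 2M, 4.57, 4.79 and 6.86 CPM at 4M and 5.18, 4.49 and 4.72 CPM at 6M. Its NOD.H-2b levels were 5.98, 8.54 and 6.78 CPM at 2M, 20.5, 13.9 and 10.6 CPM at 4M and 26.2, 16.2 and 21.7 CPM at 6M. The strains did not overlap, and the mean in NOD.H-2b was 7.10 ± 1.31 CPM at 2M, 15.0 ± 5.05 CPM at 4M and 21.3 ± 5.00 CPM at 6M (SD, n = 3 each). In log2 fold change the strains differed by 0.71 ± 0.14 at 2M (adjusted p = 0.00181), 1.47 ± 0.28 at 4M (adjusted p = 0.00588) and 2.18 ± 0.17 at 6M (adjusted p = 5.3e-06). Bcl2l11, the BH3-only protein BIM that opposes Bcl2 and drives deletion of lymphocytes, lies on chromosome 2 at 128126038 to 128162547. It was between 13.6 and 17.5 CPM in the BALB/c mice and between 11.5 and 20.4 CPM in the NOD.H-2b mice. The strains overlapped at each age. Its log2 fold change was -0.13 ± 0.09 at 2M (adjusted p = 0.259), -0.11 ± 0.13 at 4M (adjusted p = 0.555) and 0.23 ± 0.12 at 6M (adjusted p = 0.125). Without NOD.H-2b replicate 2 of 2M, the value at 2M was -0.24 ± 0.08 (adjusted p = 0.0364, the lowest over 13 alternative settings, in which it reached 0.523).

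Both necroptosis genes were higher in NOD.H-2b at each age. Ripk3, the kinase of the necrosome, lies on chromosome 14 at 55784995 to 55788865. Its BALB/c levels were 0.115, 0.144 and 0.0882 CPM at 2M, 0.0922, 0.183 and 0.283 CPM at 4M and 0.0644, 0.256 and 0.0468 CPM at 6M, from 2 to 19 counts in a mouse. Its NOD.H-2b levels were 0.559, 0.913 and 0.849 CPM at 2M, 2.56, 1.38 and 1.86 CPM at 4M and 2.67, 1.80 and 2.09 CPM at 6M. The strains did not overlap. For Ripk3 the strains differed in log2 fold change by 2.77 ± 0.40 at 2M (adjusted p = 0.000215), 3.34 ± 0.41 at 4M (adjusted p = 0.000169) and 4.28 ± 0.47 at 6M (adjusted p = 4.4e-05). Mlkl, the protein that breaks the membrane, lies on chromosome 8 at 111311797 to 111338177. Its BALB/c levels were 0.592, 0.359 and 0.176 CPM at 2M, 0.424, 0.467 and 0.940 CPM at 4M and 0.429, 0.383 and 0.351 CPM at 6M. Its NOD.H-2b levels were 1.46, 1.39 and 1.52 CPM at 2M, 2.21, 1.87 and 2.40 CPM at 4M and 2.42, 1.75 and 2.21 CPM at 6M. Again the strains did not overlap, and the BALB/c mouse closest to NOD.H-2b was the 4M mouse with the high Ptprc level. The log2 fold change was 2.00 ± 0.36 at 2M (adjusted p = 0.00108), 1.80 ± 0.32 at 4M (adjusted p = 0.00146) and 2.47 ± 0.25 at 6M (adjusted p = 2.16e-05). Without that mouse the values at 4M were 3.81 ± 0.46 for Ripk3 and 2.27 ± 0.29 for Mlkl.

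In all, 7 of the 9 genes had strain groups that did not overlap at 2M, 4M and 6M alike, Fas and Bcl2l11 being the others. At 2M, 6 of these were among the genes tested, since Fasl was not, and 7 were at 4M and 6M. Among all genes tested, 25.3% did not overlap and were higher in NOD.H-2b at 2M, 28.4% at 4M and 31.3% at 6M. The 7 genes include Fasl, Tnf and Ripk3, which passed the filter on low counts through the NOD.H-2b mice, so these counts too are a description. The rest of the 7 were Tnfsf10, Casp8, Bcl2 and Mlkl.

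**Figure D2:**
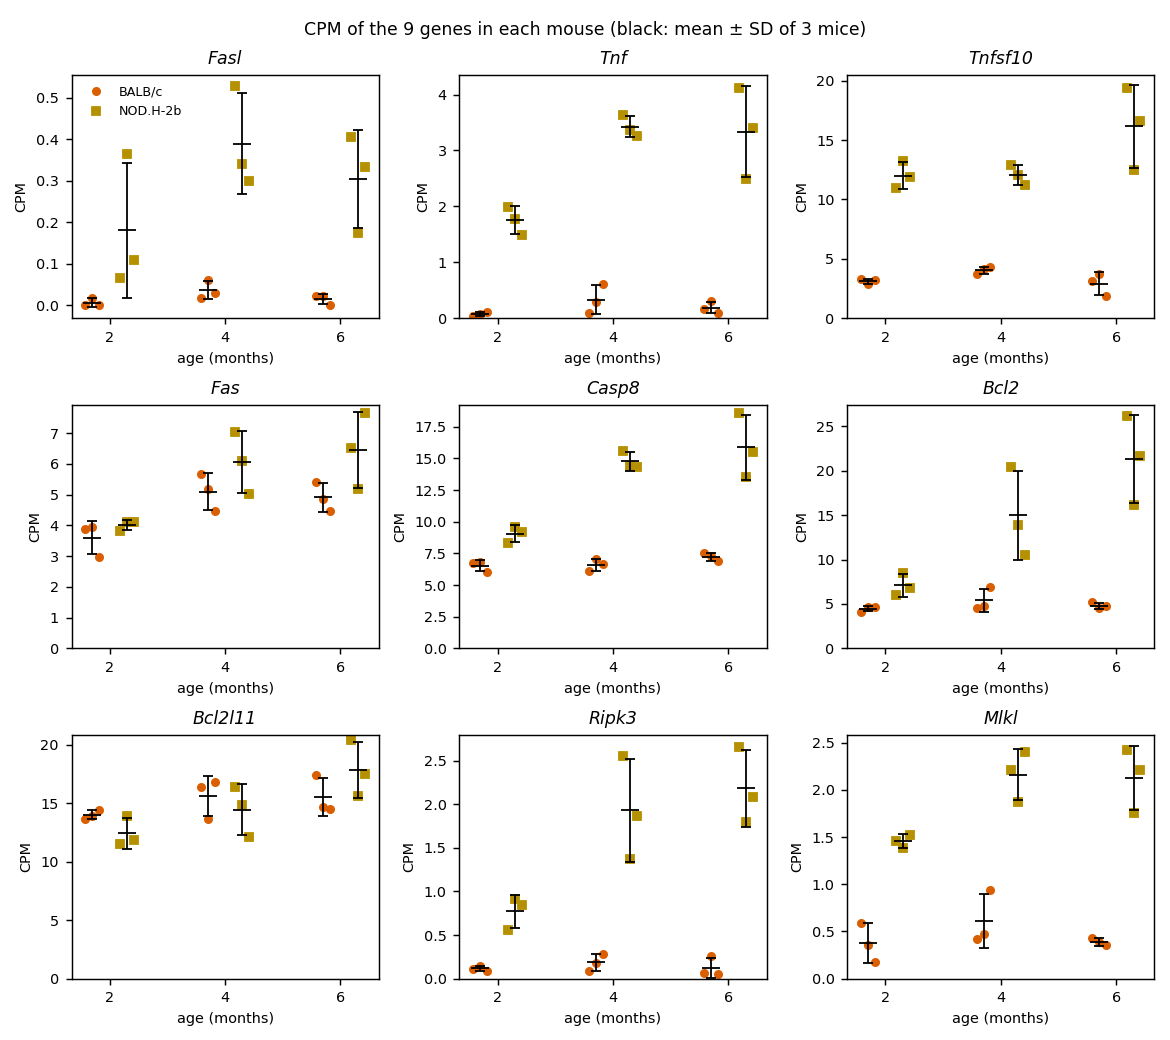
Each panel gives 1 gene, with age in months on the horizontal axis and CPM on the vertical axis, points for single mice and black bars for the mean ± SD of 3 mice. NOD.H-2b squares sit above the BALB/c circles in 7 panels, and the strains mix for Fas and Bcl2l11.

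Levels can be compared between genes only per length. CPM divided by the exon length in kilobases ranked Casp8 first among the 9 genes in 5 of the 6 groups, and Fas first in BALB/c at 4M, where it was at 2.47 ± 0.293 CPM per kb against 2.28 ± 0.164 for Casp8 (SD, n = 3). In BALB/c at 6M, Casp8 at 2.50 ± 0.109, Fas at 2.38 ± 0.227 and Bcl2l11 at 1.94 ± 0.207 CPM per kb formed the upper group, and Casp8 and Fas did not differ beyond their spread. Tnfsf10 at 0.551 and Bcl2 at 0.524 CPM per kb came next and did not differ beyond their spread either. Mlkl at 0.168, Tnf at 0.115, Ripk3 at 0.0533 and Fasl at 0.00736 CPM per kb were the lowest. In NOD.H-2b at 6M, Casp8 at 5.49 ± 0.882 CPM per kb stood above the others. Fas at 3.13 ± 0.598, Tnfsf10 at 3.07 ± 0.661, Bcl2 at 2.33 ± 0.546, Bcl2l11 at 2.22 ± 0.300 and Tnf at 2.03 ± 0.499 CPM per kb were within their spread of the next. Ripk3 at 0.953 and Mlkl at 0.923 CPM per kb were alike within their spread, and Fasl at 0.157 CPM per kb was again the lowest.

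The levels relative to leukocyte markers give the strain difference on another scale. The log2 ratio of each gene to Ptprc, with 0.01 CPM added to each, was computed in each mouse. Ptprc and each marker sum used below were themselves higher in NOD.H-2b at every age. A gene with like levels in both strains, such as Bcl2l11, can therefore be lower on these scales through the marker alone. The share of all genes that were lower on each scale is not given. A lower ratio thus does not set any of the 9 genes apart from other genes. Relative to Ptprc, Fas, Casp8, Bcl2, Bcl2l11 and Tnfsf10 were lower in NOD.H-2b with no overlap at each age. For Bcl2 the median log2 ratio at 2M was -0.83 in BALB/c mice and -3.30 in NOD.H-2b mice, and at 6M it was -1.29 and -3.77. Mlkl overlapped at 2M and was lower in NOD.H-2b at 4M and 6M. Ripk3 overlapped at every age, and the medians of Ripk3 at 6M were -7.18 in BALB/c mice and -7.06 in NOD.H-2b mice. Tnf was higher in NOD.H-2b relative to Ptprc at 2M, where the medians were -6.67 and -5.47 and the strains did not overlap, and it overlapped at 4M and 6M. Against the summed level of the 7 macrophage markers, Tnf, Ripk3 and Fasl were higher in NOD.H-2b with no overlap at each age. The median log2 ratio of Tnf to this sum at 2M was -9.57 in BALB/c mice and -6.49 in NOD.H-2b mice, and at 6M it was -8.39 and -5.92. Fas and Bcl2l11 were lower in NOD.H-2b on that scale at each age, with no overlap. Casp8 was lower at 2M and 6M and overlapped at 4M, and Bcl2 was lower at 2M and overlapped at 4M and 6M. Tnfsf10 was higher at 2M and 6M and overlapped at 4M, and Mlkl overlapped at 2M and was higher at 4M and 6M. Relative to the summed T cell markers, each of the 8 genes other than Fasl was lower in NOD.H-2b with no overlap at 4M and 6M, and 7 were at 2M, where Tnf overlapped. Fasl overlapped relative to Ptprc at each age, and relative to the T cell markers it was lower in NOD.H-2b with no overlap at each age. Against the summed cytotoxic cell markers, Fasl and Tnf overlapped at each age and Ripk3 at 4M and 6M. The rest of the 9 genes were lower there, with no overlap. Against the summed B cell markers, 4 of the 9 genes were lower with no overlap at 2M, and all 9 at 4M and 6M. On each of these scales, that of the macrophage markers included, the Fasl ratios are uncertain. For Fasl, 2 BALB/c mice of 2M and 1 of 6M held 0 counts, and the added 0.01 CPM sets their ratios. These ratios are given as values, and no test was made of them.

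**Figure D3:**
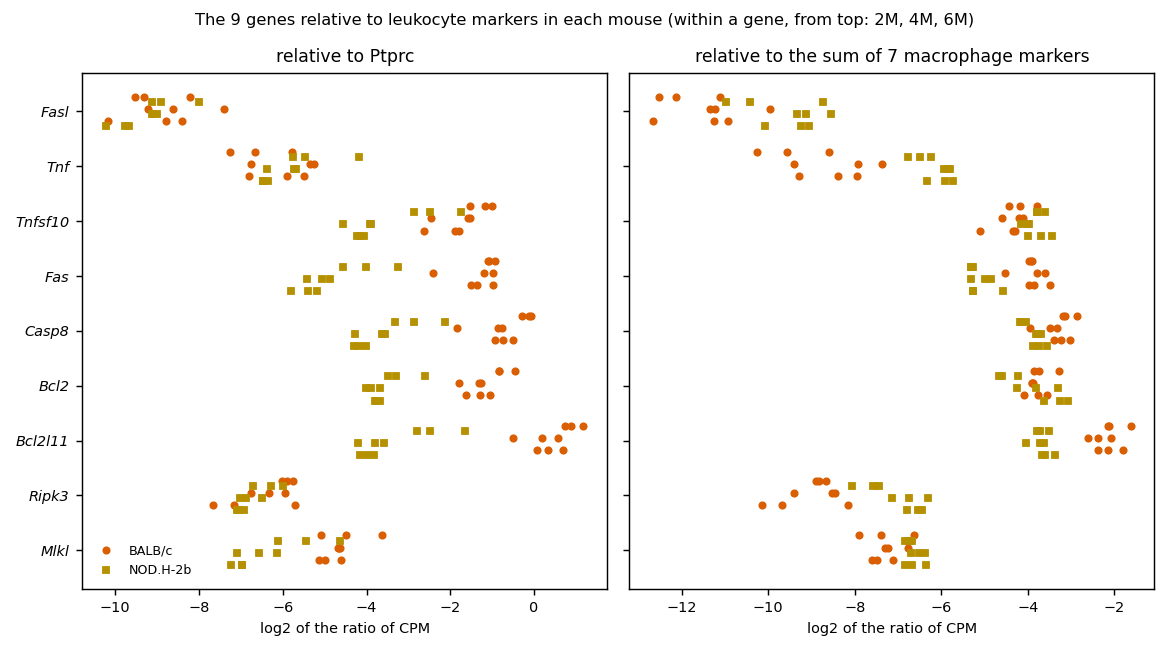
The horizontal axes give the log2 ratio of each gene to Ptprc (left) and to the sum of 7 macrophage markers (right) in each mouse, with the ages from top to bottom within a gene. Most squares of NOD.H-2b lie to the left of the BALB/c circles on the left, while Tnf, Ripk3 and Fasl lie to the right of them on the right. The added 0.01 CPM sets the Fasl ratios of BALB/c mice with 0 counts in both panels.

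Ages were compared within each strain on the 6 mice concerned. In BALB/c, 1 of 6 genes tested changed from 2M to 4M, against 11.1% of all genes tested. That gene was Fas, which rose by 0.50 ± 0.15 on the log2 scale (adjusted p = 0.0449), and the call was lost in 6 alternative settings. None of 7 genes changed from 4M to 6M (0.307% of all genes) and none of 6 from 2M to 6M (5.61%) by edgeR, with 1 gene in each at an unadjusted p under 0.05, and none passed with DESeq2 either. In NOD.H-2b, 5 of 9 genes rose from 2M to 4M, against 10.3% of all genes tested that rose. They were Casp8 (log2 fold change 0.71 ± 0.10, adjusted p = 0.00691), Tnf (0.97 ± 0.17, adjusted p = 0.0116), Ripk3 (1.32 ± 0.30, adjusted p = 0.0243), Fas (0.60 ± 0.15, adjusted p = 0.0318) and Bcl2 (1.08 ± 0.27, adjusted p = 0.0416). With the replicate number as a block the count was 0, and leaving out 1 mouse left between 1 and 5 of them. From 4M to 6M none of 9 genes passed by edgeR (0.00555% of all genes) or DESeq2, and 2 had an unadjusted p under 0.05, Tnfsf10 (0.44 ± 0.15) and Bcl2l11 (0.32 ± 0.13). From 2M to 6M, 6 of 9 rose, against 20.7% of all genes tested. Bcl2 had the largest of these differences, 1.57 ± 0.20 (adjusted p = 0.00209), followed by Ripk3 at 1.48 ± 0.26 (adjusted p = 0.00297). Tnf, Casp8, Fas and Bcl2l11 rose by 0.92, 0.79, 0.67 and 0.50. Mlkl was at 0.53 ± 0.19 (adjusted p = 0.0503), Tnfsf10 at 0.41 ± 0.15 (adjusted p = 0.065) and Fasl at 0.73 ± 0.61 (adjusted p = 0.372). These comparisons share the NOD.H-2b mice of 2M.

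Whether the strain difference itself changed with age was tested in 1 fit of the 18 mice. From 2M to 4M, Casp8 was the 1 gene of 9 to pass, against 1.67% of all 19117 genes, with a difference of 0.69 ± 0.15 on the log2 scale (adjusted p = 0.0256). From 2M to 6M, 2 of 9 passed, against 16.1% of all genes, Casp8 at 0.66 ± 0.15 (adjusted p = 0.00775) and Bcl2 at 1.48 ± 0.33 (adjusted p = 0.00937). For both genes the mean in BALB/c moved little, Casp8 from 6.54 ± 0.410 to 7.24 ± 0.316 CPM and Bcl2 from 4.46 ± 0.306 to 4.80 ± 0.351 CPM between 2M and 6M. In NOD.H-2b Casp8 went from 9.05 ± 0.658 to 15.9 ± 2.55 CPM and Bcl2 from 7.10 ± 1.31 to 21.3 ± 5.00 CPM. Ripk3 had a difference of 1.51 ± 0.70 (adjusted p = 0.151), and Tnf, which had the largest strain difference of the 8 genes tested at 2M, had -0.41 ± 0.70 (adjusted p = 0.74). Without the BALB/c mouse of 4M with the high Ptprc level, Casp8 from 2M to 4M was at 0.64 ± 0.16 (adjusted p = 0.0537). The adjusted p of this difference ranged from 0.00332 to 0.0845 over 24 alternative settings. Both calls from 2M to 6M held at an FDR under 0.05 in each of these settings.

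The 9 genes were set beside 57 other genes of the same pathways, in 8 lists. Of the 53 of these others that were tested at 2M, 31 were higher in NOD.H-2b and 9 lower. At 4M, 27 of 55 were higher and 9 lower, and at 6M, 31 of 55 were higher and 11 lower. Of all genes tested, 22.5%, 23.4% and 28.6% were higher at the 3 ages and 17.2%, 19.2% and 25.8% lower, so the lower genes were no larger a share of these others than of all genes. The counts of each list are to be read against the same shares. The median log2 fold changes of the others were 0.27, 0.33 and 0.48. Some of these others, such as Bcl2a1a and Tnfsf15, were near silent in BALB/c and passed the filter on low counts through the NOD.H-2b mice. These counts and medians are therefore a description. A gene is named below where it passed the test at every age in one direction with 1 of the 2 largest mean differences of its list. Tnfrsf1a, Fadd, Cflar, Bcl2l1, Bmf, Bik, Lta, Tnfsf12 and Tnfsf15 lie outside this rule and were picked after their values were seen.

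Of the 6 death ligands, 3, 6 and 6 were tested at 2M, 4M and 6M, with 3, 5 and 6 higher and none lower. Only Tnf and Tnfsf10 passed at every age. Tnfsf12 was higher at 2M and 6M and did not pass at 4M. Lta, the lymphotoxin gene next to Tnf, and Tnfsf15 (TL1A) were higher at 4M and 6M. At 2M, where 3 of the 6 death ligands were tested, Lta and Tnfsf15 had too few counts for the test. At 4M the mean of Lta was 0.0758 CPM in BALB/c mice and 1.20 CPM in NOD.H-2b mice, and its log2 fold change was 4.04 (adjusted p = 0.000333). Tnfsf15 was at 0 counts in the 3 BALB/c mice of 4M and at 41, 25 and 21 counts in NOD.H-2b. Of the 10 death receptors and decoys, including Fas, 5, 5 and 6 were higher and 2, 1 and 2 lower at 2M, 4M and 6M. Tnfrsf1b, the TNF receptor of leukocytes, was higher by 2.52, 2.70 and 3.51 on the log2 scale. Tnfrsf26, another receptor of the family, was higher by 2.79, 3.14 and 5.35, from 2 to 19 counts per BALB/c mouse, and overlaps a gene on the other strand. Tnfrsf1a, the TNF receptor with a death domain, had 0.22 at 2M (adjusted p = 0.0196), -0.13 at 4M (adjusted p = 0.296) and -0.16 at 6M (adjusted p = 0.208).

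In the receptor complex and its regulators, 14 genes with Casp8, the counts were 8, 6 and 9 higher and 1, 0 and 1 lower. Tnfaip3 (A20), which edits ubiquitin chains and is induced by NF-kappaB, was higher by 1.11, 1.41 and 1.98 (adjusted p = 9.49e-06, 1.05e-05 and 1.8e-06). Birc3 (cIAP2), a ubiquitin ligase that favours survival signalling by TNF receptors, was higher by 0.72, 1.02 and 1.32. The adaptor Fadd had 0.29 at 2M (adjusted p = 0.0198), -0.13 at 4M (adjusted p = 0.459) and -0.39 at 6M (adjusted p = 0.0381). Cflar (c-FLIP), which restrains Casp8, had -0.14 (adjusted p = 0.04), 0.01 (adjusted p = 0.944) and 0.19 (adjusted p = 0.0598).

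Among the pro-survival BCL2 family genes, 7 of 8 were tested with 6, 5 and 5 higher and 1, 0 and 1 lower. Bcl2a1a was higher by 5.24, 5.17 and 5.23 and Bcl2a1b by 4.33, 4.26 and 5.29. The BALB/c mice held 0 to 3 counts of Bcl2a1a, and these 2 genes are near-identical copies, so the division of reads between them is uncertain. Bcl2l1 (BCL-XL) was lower by 0.65 at 6M (adjusted p = 0.000351). The 3 pore-forming genes were higher at each age. Bok had its widest strain difference at 2M, with log2 fold changes of 3.04, 2.24 and 1.60. At 2M the BALB/c mice had 2.16, 3.29 and 1.85 CPM of Bok and the NOD.H-2b mice 22.7, 17.8 and 17.8 CPM. At 6M the former had 3.40, 4.05 and 2.60 CPM and the latter 9.32, 11.6 and 8.85 CPM. The strains did not overlap at either age, and the strain difference was smaller at 6M than at 2M by the test of strain by age (-1.44 ± 0.44 on the log2 scale, adjusted p = 0.0396, a test that 16.1% of all genes passed). Bak1 was higher by 1.34, 1.76 and 2.05, and its exons overlap those of Ggnbp1.

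Of the 8 BH3-only genes, Bcl2l11 included, 7 were tested, and 3, 2 and 2 were higher and 0, 2 and 2 lower. At 4M and 6M these shares were close to those over all genes. Pmaip1 (NOXA) was higher by 3.48, 3.58 and 3.72 and Bid, which Casp8 cleaves to link death receptors to mitochondria, by 2.62, 2.17 and 2.44, where Bid shares exonic sequence with Bcl2l13. Bmf and Bik were lower at 4M and 6M, Bmf by 0.57 and 0.95 (adjusted p = 0.0386 and 0.000778). The apoptosome and caspase list of 13 genes had 6, 5 and 5 higher and 4, 5 and 4 lower. Casp6, an effector caspase, had log2 fold changes of -0.88, -1.53 and -1.51 (adjusted p = 2.27e-06, 1.08e-06 and 1.01e-06). At 2M the BALB/c mice had 25.2, 23.7 and 26.8 CPM of Casp6 and the NOD.H-2b mice 13.0, 13.6 and 13.4 CPM. At 6M the former had 26.9, 29.4 and 24.8 CPM and the latter 9.11, 8.96 and 9.75 CPM. The strains did not overlap, with NOD.H-2b the lower.

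Of the 4 necroptosis genes, 3 were higher and 1 lower at each age. Zbp1, a sensor of Z-form nucleic acids that engages Ripk3, was higher by 4.67, 4.17 and 5.06 (adjusted p = 3.92e-05, 0.00111 and 1.11e-07). It ranged from 0.287 to 1.49 CPM in the BALB/c mice and from 6.18 to 28.2 CPM in the NOD.H-2b mice. Ticam1 (TRIF), the adaptor of TLR3 and TLR4 that also engages Ripk3, had -0.33, -0.34 and -0.59 (adjusted p = 0.00308, 0.0208 and 0.000977).

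**Figure D4:**
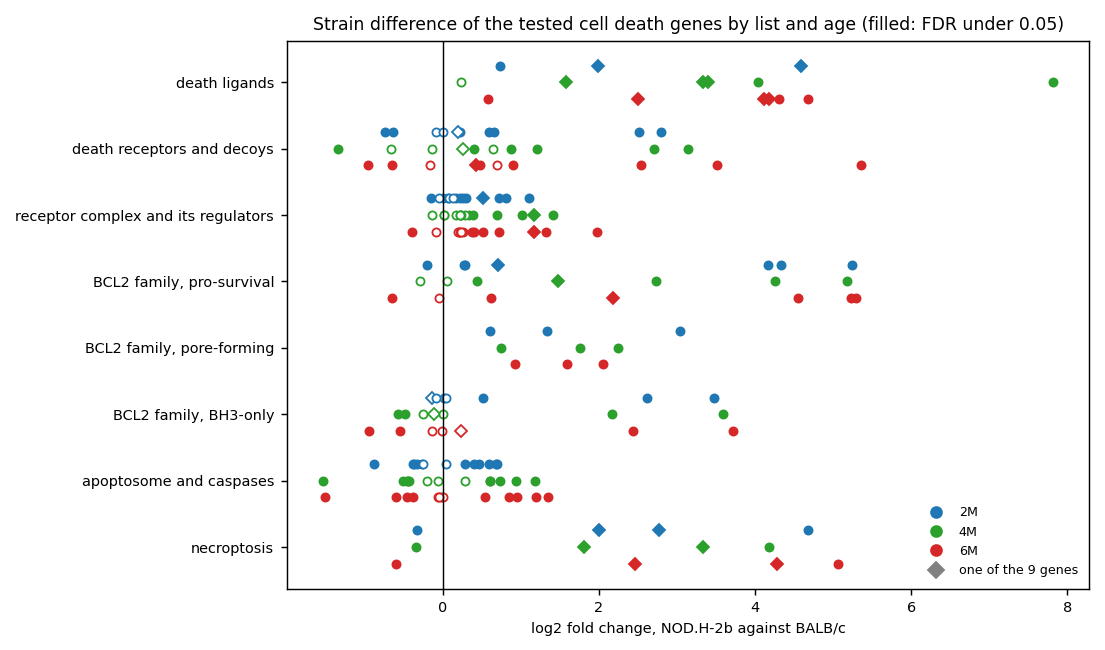
Each point is 1 tested gene, placed by its log2 fold change of NOD.H-2b against BALB/c on the horizontal axis, by list from top to bottom and by age in colour, and diamonds are the 9 genes. The pore-forming genes all lie right of 0, whereas the caspases and the BH3-only genes lie on both sides.

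For the 3 genes with the widest spread of group means, the genes with the most similar pattern over the 18 mice were found among 19116 other genes by the root of the mean squared difference in log2 CPM, after the mean of each gene was removed. The nearest to Tnf were Ccl22 (a log2 difference of 0.435), Selplg (0.499) and Itgax (0.515). The nearest to Ripk3 were Ly86 (0.308), Hcls1 (0.357) and Psmb8 (0.363). The nearest to Fasl were Foxj1 (0.314), I830077J02Rik (0.353) and Gm43197 (0.378), in a range where single counts set the values. The SD of the 6 group means of log2 CPM was 2.22 for Tnf, 1.85 for Ripk3 and 1.47 for Fasl, and 0.321 for Fas and 0.174 for Bcl2l11.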

How the data were processed

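The authors deposited raw counts per gene. Each gland's total RNA was cleared of ribosomal RNA before sequencing of paired ends. The reads were trimmed by cutadapt, STAR placed them on GRCm38, and HTSeq gave a count for each gene. The deposited log2 table holds log2 of the count divided by a DESeq2 size factor per mouse, plus 1. It differed from these counts so scaled by at most 5.2e-14 and served for that check only. Tool versions, the annotation release, the strandedness of counting and how multiply matching reads were handled are not given in the sources used here. Names, coordinates and exon lengths were taken from GENCODE M21 (54079 of 54232 genes matched).

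Each comparison of strains at an age, or of ages in a strain, used its own 6 mice in edgeR 4.0.16 under R 4.3.3 (TMM normalization, filterByExpr, robust quasi-likelihood test, Benjamini-Hochberg adjustment over all genes tested). The change of the strain difference with age was tested in a fit of all 18 mice. Standard errors were derived from the F statistic. A gene was called at an FDR under 0.05. The steps were run on simulated data for the strain comparison at 2M and the change of the strain difference from 2M to 6M. Every gene was given the same spread between replicates there, so error rates at the spread of these mice were not tested. Totals ranged from 49480781 to 103936830 counts. Pairs of replicates differed by more than counting error (chi-square of 17.7 to 91.1 per gene). Intervals of the pooled Fasl ratio are exact at 95%. The alternatives were DESeq2 size factors, the upper quartile, no filter beyond 1 count, at least 10 counts in every sample, DESeq2 1.42.0's Wald test, a fit of all 18 mice, at least a 2-fold change, the replicate number as a block, and leaving out each mouse in turn.

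Each of the 9 genes is described. From each of 8 lists of pathway genes, the 2 other genes with the largest absolute mean log2 fold change over the 3 ages were named, among those that passed at every age in one direction. For the 3 of the 9 genes with the largest SD of group means of log2 CPM (prior count of 2), the 3 genes nearest in pattern were named. A gene that this rule names is not reported here. The 9 genes, the lists and the 11 marker lists were chosen with earlier results of these data known. Other parts of the study, such as the spatial sections, were not used here.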

Additional observations from a re-analysis of the deposited data

Results flagged for a closer look

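The strain difference changed with age in 3 tests that passed. From 2M to 4M, 1 of the 9 genes passed, against 1.67% of all 19117 genes tested. From 2M to 6M, 2 of 9 passed, against 16.1% of all genes. The call of Casp8 from 2M to 4M was lost in 8 of 24 alternative settings. For Casp8 the difference between NOD.H-2b and BALB/c was larger at 4M than at 2M by 0.69 on the log2 scale (0.694 before rounding, standard error 0.15, adjusted p = 0.0256 by edgeR's quasi-likelihood test), and larger at 6M than at 2M by 0.66 (0.6648, adjusted p = 0.00775). For Bcl2 it was larger at 6M than at 2M by 1.48 (1.478, standard error 0.33, adjusted p = 0.00937). In NOD.H-2b the 3 mice of 6M were above the 3 mice of 2M for both genes, and in BALB/c neither gene passed the test of 2M against 6M. Ptprc moved with these values, from a median of 66.8 CPM at 2M to 279 CPM at 6M in NOD.H-2b, and its part in them was not tested. No formal test for a single outlying value was made in groups of 3 mice.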

How the results depend on the processing

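No value of the 9 genes changed direction after a call. Of the 1351 fold changes under other settings, 1298 kept their side of the threshold, 40 lost a call and 13 gained one. The strain counts of 6, 7 and 8 higher genes were 4, 4 and 5 where at least 10 counts were asked of every sample, because fewer of the genes were tested, and 4, 7 and 7 at a 2-fold threshold. With the upper quartile they were 6, 7 and 7. Leaving out 1 mouse gave 6 to 6, 7 to 7 and 7 to 9 genes higher at 2M, 4M and 6M, and 0 to 1 lower at 2M, where the 1 was Bcl2l11 without NOD.H-2b replicate 2. Fas at 6M was lost with the upper quartile (adjusted p = 0.0612), with the block (0.0564) and without BALB/c replicate 1, 2 or 3 or NOD.H-2b replicate 1 or 3 of 6M. At an FDR under 0.05, the other calls between strains were kept in every setting that tested the gene.

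Age counts were less stable, and the cause was not tested. In BALB/c from 2M to 4M the count of 1 was 2 with no filter, 0 at a 2-fold threshold and 0 to 1 without a mouse, being 0 without replicate 1, 2 or 3 of 2M or replicate 2 of 4M. The call of Fas was also lost without replicate 1 of 4M (adjusted p = 0.134 by edgeR) and in the fit of all 18 mice (0.0803). There the count stayed at 1 through a gene that was not tested in the main setting. From 2M to 6M the BALB/c count was 0 to 1, with Fas called without BALB/c replicate 3 of 6M. In NOD.H-2b mice, between 2M and 4M, the count of 5 was 2 at a 2-fold threshold and 1 to 5 without a mouse, being 2 without replicate 1 and 1 without replicate 3 of 2M, and 3 without replicate 1 or replicate 2 of 4M. From 2M to 6M the count of 6 was 2 at a 2-fold threshold and 6 to 8 without a mouse. The strain by age counts of 1 and 2 were 0 and 1 at a 2-fold threshold. Without a mouse they were 0 to 1 (0 without BALB/c replicate 1 or 2 of 2M, NOD.H-2b replicate 1 or 3 of 2M, any BALB/c mouse of 4M or NOD.H-2b replicate 1 of 4M) and 2 to 3.

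The labels do not say whether the replicate numbers pair mice of different groups. The values here cannot decide it, because the correlations took both signs and the block both lowered and raised calls. Deviations from the group means of same-numbered mice correlated between -0.3 and 0.298 over 15 pairs for number 1, -0.191 and 0.103 for number 2, and -0.0523 and 0.0954 for number 3. With the replicate block the NOD.H-2b count from 2M to 4M was 0, while calls among all genes went from 2799 to 308, and the strain counts were 6, 7 and 7. No other scaling moved the median of all genes by over 0.1 (log2). Depth limited Fasl, Tnf and Ripk3 in BALB/c, and Fasl could not be tested at 2M. Of the lists, the pathway genes lower in NOD.H-2b fell from 9 to 4 or 5 at 2M without replicate 1 of BALB/c or of NOD.H-2b, from 9 to 5 at 4M without BALB/c replicate 1, and from 11 to 7 at 6M without BALB/c replicate 1 or NOD.H-2b replicate 3.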
